A study of Mus musculus with 8 samples.

Results

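The 10 genes described here encode the NKG2 and Klri receptors of natural killer (NK) cells and the adaptors that signal for such receptors. They were taken by name, not by any measured value, from the 27179 gene identifiers of the count table. The receptors are Klrc1, Klrc2, Klrd1, Klrk1, Klre1, Klri1 and Klri2, and the adaptors are Fcer1g, Tyrobp and Hcst. All 10 passed the filter on low counts that left 13794 genes for testing.

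RNA-seq read counts were available for natural killer T (NKT) cells of the thymus from Ezh2-KO and WT mice, all on the C57BL/6 background. These T cells carry a receptor for lipids presented by CD1d. Ezh2 encodes the catalytic subunit of Polycomb repressive complex PRC2, which methylates histone H3. Each genotype had 4 libraries. CD44- NK1.1- cells, commonly placed earliest in thymic NKT development, had 1 library per genotype, for CD44+ NK1.1- cells each genotype had 2 replicates that the series calls biological, and CD44+ NK1.1+ cells, commonly placed last, had 1 library per genotype. How Ezh2 was deleted, in which cells, and the age of the mice are not stated in the labels.

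NKG2A, encoded by Klrc1, and NKG2C, encoded by Klrc2, each pair with CD94, encoded by Klrd1, and bind the non-classical MHC molecule Qa-1. NKG2A inhibits through phosphatases, whereas NKG2C activates through the adaptor DAP12, encoded by Tyrobp. NKG2D, encoded by Klrk1, binds stress-induced ligands such as RAE-1, H60 and MULT1 and signals through DAP10, encoded by Hcst, and in mice also through DAP12. The Klre1 product pairs in rodents with the Klri1 product to form an inhibitory receptor, or with the Klri2 product to form an activating one. Fcer1g encodes the Fc receptor gamma chain, which like DAP12 carries an activation motif that recruits Syk and Zap70, whereas DAP10 recruits phosphatidylinositol 3-kinase. In mice NK1.1+ NKT cells share many such receptors with NK cells.

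The 7 receptor genes lie together in the NK gene complex on mouse chromosome 6 (build mm10, RefSeq gene models of GRCm38.p6), within 181120 bases. From the lowest coordinate they are Klre1 (chr6:129559365-129585828, plus strand), Klrd1 (chr6:129588092-129598775, plus strand), Klrk1 (chr6:129610323-129623903, minus strand), Klrc2 (chr6:129649602-129660737, minus strand), Klrc1 (chr6:129666015-129682852, minus strand), Klri1 (chr6:129696118-129720610, minus strand) and Klri2 (chr6:129729041-129740484, minus strand). Tyrobp (chr7:30413782-30417582, plus strand) and Hcst (chr7:30417712-30419854, minus strand) are neighbours whose 3′ ends face each other with 129 bases between them. Fcer1g (chr1:171229572-171234349, minus strand) lies apart. In a second annotation, GENCODE, no other gene overlapped any of the 10. Its bounds are shorter than the RefSeq ones above for some genes, such as Klre1 and Klri1. Overlap with the longer RefSeq models was not checked. Some of the 10 share sequence with other genes. Of the 50-base stretches in Klrc1 transcripts, 38.6% also occur in Klrc2 or Klrc3, and of those in Klrc2 transcripts 16.3% occur in Klrc1 or Klrc3. For Klri1 and Klri2 the shares found in other genes were 5.83% and 2.77%. How the authors' counting treated reads that fit several genes is not stated in the labels, so Klrc1 and Klrc2 counts carry that uncertainty.

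Promoter sequence, 250 bases before to 50 after an annotated start (RefSeq, GRCm38.p6), was found for 7 of the 10 genes, in 9 windows. The windows of Klrc1, Klre1 and Klri1 lay wholly inside the gene models given above. Sequence before the outer start of those models was not read. All 9 windows were read on both strands for GGTGTGA (T-box factors), TGTGGTT (Runx factors) and AGGAAGT (Ets factors), and no stretch of them matched more than 1 of these words. Of 32851 mouse promoter windows of the same length, 3.98% held the T-box word, 5.27% the Runx word and 9.35% the Ets word. The Runx word stood once in Klrk1, at position -129 from the start, and once in the upstream window of Klre1, at -229. Hcst held the Ets word at -46 and at -17. No window of Klrc1, Klrc2, Klri1 or Fcer1g held any of these words. The windows of 4 genes are printed 5′ to 3′ with these words in capitals: Klri1 and Fcer1g because their values in Ezh2-KO and WT CD44+ NK1.1+ cells lay furthest apart in opposite directions, and Klrk1 and Hcst as the receptor and the adaptor of the NKG2D complex. They are Klri1 at chr6:129717083-129717382, Fcer1g at chr1:171234300-171234599, Klrk1 at chr6:129623815-129624114 and Hcst at chr7:30419805-30420104, all on the minus strand.
Klri1: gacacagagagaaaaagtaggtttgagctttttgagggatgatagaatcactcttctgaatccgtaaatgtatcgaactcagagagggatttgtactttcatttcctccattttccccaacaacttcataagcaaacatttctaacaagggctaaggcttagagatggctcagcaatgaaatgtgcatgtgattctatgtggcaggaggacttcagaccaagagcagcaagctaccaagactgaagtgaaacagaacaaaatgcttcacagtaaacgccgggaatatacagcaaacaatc
Fcer1g: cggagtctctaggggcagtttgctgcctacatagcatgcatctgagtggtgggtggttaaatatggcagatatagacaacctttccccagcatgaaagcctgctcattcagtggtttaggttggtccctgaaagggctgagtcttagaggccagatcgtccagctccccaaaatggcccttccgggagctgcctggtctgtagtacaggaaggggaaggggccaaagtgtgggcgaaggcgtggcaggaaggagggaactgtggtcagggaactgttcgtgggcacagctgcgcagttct
Klrk1: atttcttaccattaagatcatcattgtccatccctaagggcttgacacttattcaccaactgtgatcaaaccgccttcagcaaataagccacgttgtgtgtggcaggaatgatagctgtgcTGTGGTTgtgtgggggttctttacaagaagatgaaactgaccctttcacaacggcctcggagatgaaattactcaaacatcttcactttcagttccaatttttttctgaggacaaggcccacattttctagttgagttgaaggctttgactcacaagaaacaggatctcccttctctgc
Hcst: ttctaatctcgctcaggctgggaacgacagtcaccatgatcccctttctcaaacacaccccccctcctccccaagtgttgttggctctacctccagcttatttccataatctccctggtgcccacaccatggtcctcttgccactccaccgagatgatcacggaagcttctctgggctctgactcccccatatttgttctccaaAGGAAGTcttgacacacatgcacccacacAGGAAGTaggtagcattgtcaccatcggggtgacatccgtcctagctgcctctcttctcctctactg

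Depth ranged from 20308745 to 22995090 counts per library, so that 3 counts, the limit a count of 0 allows, came to between 0.13 and 0.148 CPM. CPM are read counts brought to a common depth, here with scaling by the trimmed mean of M values (TMM). Ezh2 itself stood at 83.3 and 77.9 CPM in Ezh2-KO and 113 and 136 CPM in WT CD44+ NK1.1- replicates, a log2 change of -0.63 (SE 0.12, adjusted p = 0.0407, edgeR quasi-likelihood test). Counts over the whole gene can include exons outside a deleted part, so this is only a partial check of the labels. T and NKT cell markers summed to 2498 to 3150 CPM over 6 genes in every library, with none of them at 0. Markers of myeloid cells, which express Fcer1g and Tyrobp strongly, summed to 7.29 to 21.5 CPM over 12 genes. Of these, Cd14 was at 0.101 CPM or less and Csf1r at 1.01 CPM or less. S100a9 reached 5.33 CPM and Lyz2 4.98 CPM, both in Ezh2-KO CD44+ NK1.1+ cells. Tyrobp lay between 0.18 and 11.8 CPM, and the part of myeloid cells in its values was not tested. Of 4 mast cell and basophil markers, 3 were at 0 counts in every library. WT CD44+ NK1.1- replicate 1 stood apart: its immediate early genes summed to 3341 CPM, against 551 to 1128 CPM in the other libraries.

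In CD44+ NK1.1+ cells all 10 genes were higher than in CD44+ NK1.1- cells in every library, and 9 of them passed the test of that difference, in which the mean was taken over both genotypes. Over all tested genes 16.4% were called higher and 16.1% lower in this comparison, at an adjusted p under 0.05. The log2 differences of the 10 ran from 1.32 to 5.25 with a median of 4.13, whereas the median over all tested genes was 0.00. Both CD44+ NK1.1+ libraries thus lay above every CD44+ NK1.1- library for all 10, as they did for 24.4% of tested genes. In these bulk samples, fewer cells that express a gene and less RNA of it per cell cannot be told apart.

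Klrd1, the CD94 chain that NKG2A and NKG2C need to reach the surface, stood at 387 CPM in Ezh2-KO and 365 CPM in WT CD44+ NK1.1+ cells. In CD44+ NK1.1- cells it stood at 23.2 and 24.1 CPM in Ezh2-KO and at 80.5 and 24.1 CPM in WT replicates. The log2 difference between these subsets was 3.42 (SE 0.57, adjusted p = 0.034). The lowest CD44+ NK1.1+ library was thus well above the highest CD44+ NK1.1- library, WT replicate 1.

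Klrc1, the inhibitory NKG2A chain, stood at 169.9 CPM in Ezh2-KO and 102 CPM in WT CD44+ NK1.1+ cells. In CD44+ NK1.1- cells it was at 3.96 and 4.82 CPM in Ezh2-KO and at 10.2 and 2.32 CPM in WT replicates. It was higher in CD44+ NK1.1+ cells by 4.65 on the log2 scale (SE 0.63, adjusted p = 0.0204). Its activating relative Klrc2 stood at 127 CPM in Ezh2-KO and 89.8 CPM in WT CD44+ NK1.1+ cells. Klrc2 was at 2.43 and 3.51 CPM in Ezh2-KO and 13.1 and 2.71 CPM in WT CD44+ NK1.1- replicates, and the log2 difference between the subsets was 4.46 (SE 0.72, adjusted p = 0.0307). The inhibitory and the activating chain were thus both higher in the NK1.1+ subset.

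Klrk1, which encodes NKG2D, had the most reads of the 10 genes in CD44+ NK1.1+ cells, at 1037 CPM in Ezh2-KO and 632 CPM in WT. In CD44+ NK1.1- cells it stood at 56.3 and 51.9 CPM in Ezh2-KO and at 123 and 35.4 CPM in WT replicates. The log2 difference was 3.63 (SE 0.60, adjusted p = 0.0332).

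Klre1, the shared chain of the Klri receptors, stood at 187 CPM in Ezh2-KO and 117 CPM in WT CD44+ NK1.1+ cells. It was at 2.10 and 2.61 CPM in Ezh2-KO and at 12 and 0.86 CPM in WT CD44+ NK1.1- replicates. Its log2 difference of 5.25 was the highest of the 10 but, with an SE of 1.06, did not pass the test (adjusted p = 0.0555). The WT replicates alone differed 13.9-fold for this gene.

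Klri1, the inhibitory partner of Klre1, was the lowest receptor in reads, at 22.1 CPM in Ezh2-KO and 2.89 CPM in WT CD44+ NK1.1+ cells. Its CD44+ NK1.1- replicates stood at 0.906 and 0.72 CPM in Ezh2-KO and at 0.676 and 0.344 CPM in WT, and the difference between the subsets was 3.63 (SE 0.25, adjusted p = 0.000698). Klri2, the activating partner, stood at 85.1 CPM in Ezh2-KO and 34.2 CPM in WT CD44+ NK1.1+ cells. It was at 1.05 and 0.675 CPM in Ezh2-KO and at 5.32 and 0.774 CPM in WT CD44+ NK1.1- replicates, a log2 difference of 5.06 (SE 0.77, adjusted p = 0.0248).

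Among the adaptors, Fcer1g stood at 95.1 CPM in Ezh2-KO and 153 CPM in WT CD44+ NK1.1+ cells. It was at 1.77 and 1.08 CPM in Ezh2-KO and at 21.0 and 5.63 CPM in WT CD44+ NK1.1- replicates, and the difference between the subsets was 4.79 (SE 0.66, adjusted p = 0.021). Tyrobp, which encodes DAP12, was scarce even in CD44+ NK1.1+ cells, at 11.8 CPM in Ezh2-KO and 9.94 CPM in WT. Its CD44+ NK1.1- replicates stood at 0.429 and 0.405 CPM in Ezh2-KO and at 1.98 and 0.903 CPM in WT, a log2 difference of 3.79 (SE 0.30, adjusted p = 0.000899). Hcst, which encodes DAP10, moved least. It stood at 140.3 CPM in Ezh2-KO and 136 CPM in WT CD44+ NK1.1+ cells, and at 41.0 and 48.4 CPM in Ezh2-KO and 85.5 and 51.4 CPM in WT CD44+ NK1.1- replicates, a difference of 1.32 (SE 0.21, adjusted p = 0.00888). Hcst was thus the one adaptor that was abundant in NK1.1- cells too.

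The direction was the same under every alternative run, but the number of calls was not. Leaving out Ezh2-KO CD44+ NK1.1- replicate 1 or replicate 2 left 3 of the 10 called in each case, namely Klri1, Tyrobp and Hcst, against 5.94% and 5.33% of all genes called higher. So did testing without a filter on low counts (11.7%). Leaving out the Ezh2-KO CD44+ NK1.1+ library, in a fit with subset and genotype as added effects, left 4, namely Klrc1, Klrc2, Klri1 and Tyrobp (8.14%), whereas the same design with all libraries called 10 (19.6%). Within WT alone 2 were called, Klri1 and Tyrobp (5.68%), and within Ezh2-KO alone 6 (9.4%), with the variance taken from the fit of all libraries.

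**Figure D1:**
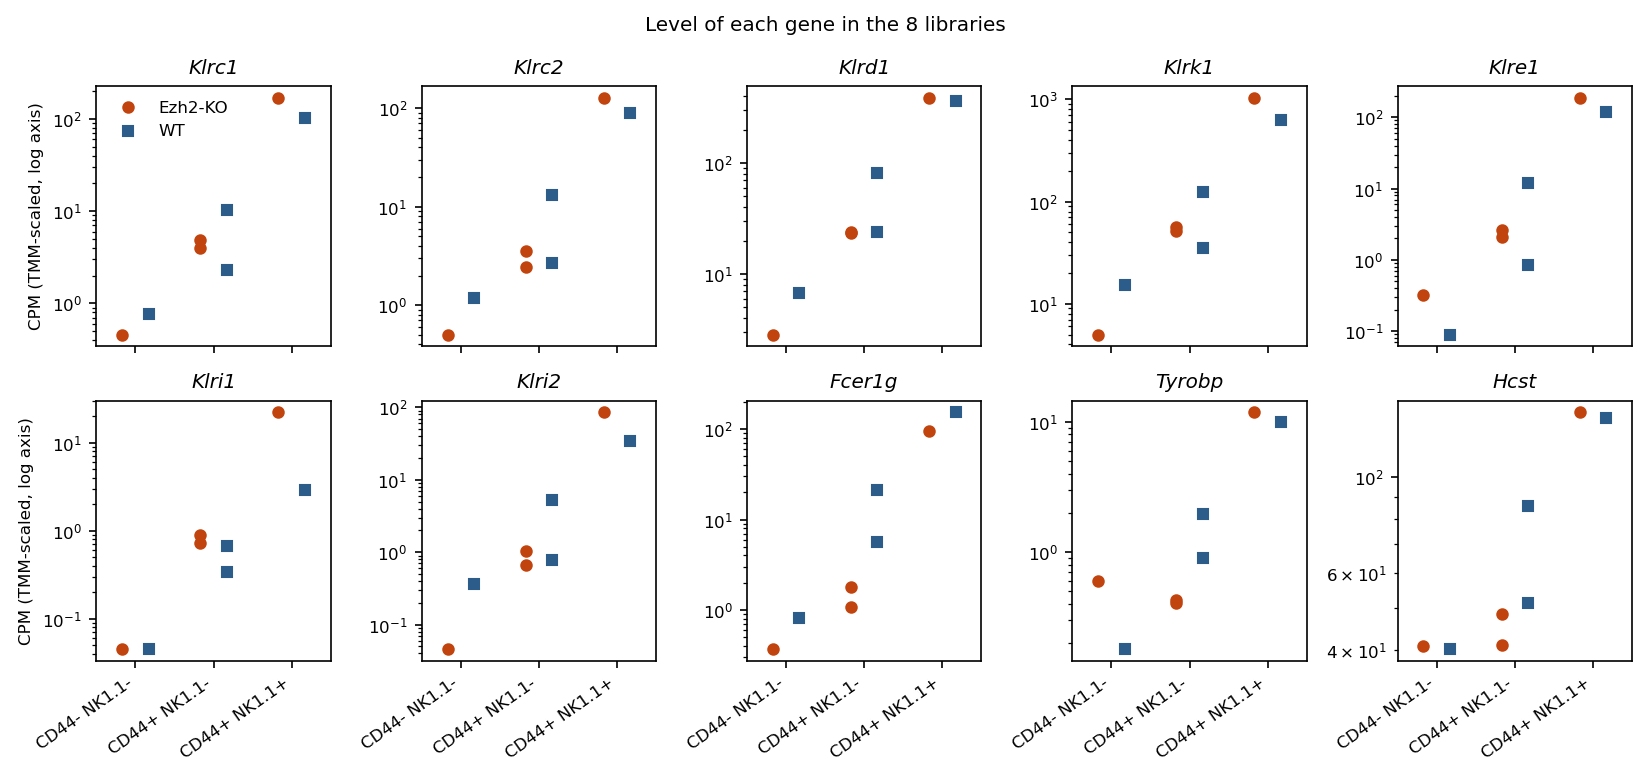
Level of each of the 10 genes in the 8 libraries, in TMM-scaled CPM on a log axis, by subset (earliest left) and genotype (circles Ezh2-KO, squares WT; each point is 1 library). In every panel both CD44+ NK1.1+ libraries lie above all CD44+ NK1.1- libraries, and the Ezh2-KO CD44+ NK1.1- replicates lie closer together than the WT ones.

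In CD44- NK1.1- cells the receptors and the other adaptors were scarce, whereas Hcst stood at 40.9 CPM in Ezh2-KO and 40.2 CPM in WT. Klrk1 stood at 5 CPM in Ezh2-KO and 15.3 CPM in WT, and Klrd1 at 2.84 CPM in Ezh2-KO and 6.79 CPM in WT. Klrc1, Klrc2, Klre1, Klri2, Fcer1g and Tyrobp lay between 0.0458 and 0.596 CPM in Ezh2-KO and between 0.0899 and 1.17 CPM in WT, and Klri1 had 1 read in each library.

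From CD44- NK1.1- to CD44+ NK1.1- cells only Klri1 passed the edgeR test, which called 1.59% of all tested genes higher. That call rests on 58 reads in the CD44+ NK1.1- libraries against 2 in the CD44- NK1.1- ones, a ratio of scaled counts of 14.4 (95% counting interval 3.82 to 122). The other 9 differences were positive, between 0.45 for Hcst and 4.46 for Klre1 on the log2 scale, with adjusted p between 0.248 and 0.521. At an unadjusted p under 0.05 there were 4 of the 10, against 15.4% of tested genes, and the Wald test of DESeq2 called 7 of the 10 higher, against 2.56% of the genes it tested. In 9 of the 10 every CD44+ NK1.1- library was above both CD44- NK1.1- libraries, against 11.4% of tested genes. Tyrobp was the exception: its Ezh2-KO CD44- NK1.1- library, at 0.596 CPM, was above both Ezh2-KO CD44+ NK1.1- replicates. All 10 differences stayed positive when a library was left out. No gene of the 10 was called within WT alone or within Ezh2-KO alone, against 0.834% and 0.464% of all tested genes called higher. With subset and genotype as added effects none of the 10 was called, against 1.52% of all tested genes called higher. The fits without a CD44- NK1.1- library used added effects too, so their 0 calls cannot be laid to that library. Leaving out WT CD44+ NK1.1- replicate 1 or replicate 2 raised the calls among the 10 to 9 and to 10, all higher, against 12.5% and 16.3% of all genes tested, in fits where the lone WT library was assumed to vary like the Ezh2-KO pair.

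**Figure D2:**
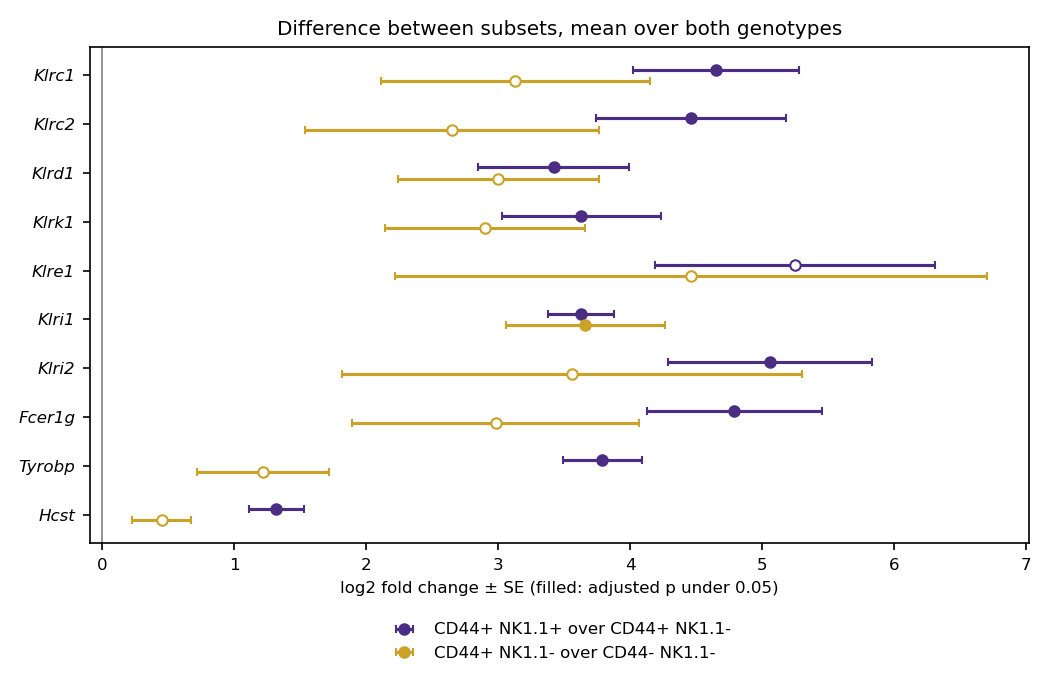
Difference between subsets on the log2 scale for each gene (x axis, bars ± SE of the edgeR fit, mean over both genotypes), for CD44+ NK1.1+ over CD44+ NK1.1- and for CD44+ NK1.1- over CD44- NK1.1-, with filled points at an adjusted p under 0.05. All points are above 0, and for each gene the bar of the earlier step is the wider one, from 0.22 for Hcst to 2.24 for Klre1.

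Taking the 3 subsets in order, every CD44- NK1.1- library was below every CD44+ NK1.1- library and every CD44+ NK1.1- library below every CD44+ NK1.1+ library for 9 of the 10 genes. This full order held for 4.71% of all tested genes. Hcst, although in that order, spanned 40.2 to 140.3 CPM only, whereas Klrk1 spanned 5 to 1037 CPM.

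Levels can be set against each other only per length, as CPM per kilobase of the counted gene length. On that scale Hcst ranked first, then Klrd1, then Klrk1, in both CD44- NK1.1- libraries and in all 4 CD44+ NK1.1- libraries. In CD44+ NK1.1+ cells Klrd1 came first, at 447 in Ezh2-KO and 421 in WT, and Hcst second, at 318 in Ezh2-KO and 308 in WT. Klrk1 stood at 315 in Ezh2-KO and 192 in WT. The ratio of Hcst to its partner Klrk1, per length, was 61.0 in Ezh2-KO and 19.5 in WT CD44- NK1.1- cells (counting intervals 49.9 to 75.1 and 17.2 to 22.2). It was 5.43 and 6.94 in Ezh2-KO and 5.17 and 10.8 in WT CD44+ NK1.1- replicates. In CD44+ NK1.1+ cells it was 1.01 in Ezh2-KO (0.969 to 1.05) and 1.60 in WT (1.54 to 1.67). The adaptor transcript was thus in excess of the receptor transcript early and about level with it in the Ezh2-KO CD44+ NK1.1+ library.

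Tyrobp per length was far below Fcer1g and Hcst in the NK1.1+ subset, at 20.8 in Ezh2-KO and 17.5 in WT, against 145 in Ezh2-KO and 232 in WT for Fcer1g. The per-length ratio of Fcer1g to Tyrobp was 6.96 in Ezh2-KO (6.07 to 8) and 13.3 in WT (11.6 to 15.4). Klrd1 exceeded Klrc1 per length 1.93-fold in Ezh2-KO (1.85 to 2.01) and 3.03-fold in WT CD44+ NK1.1+ cells (2.88 to 3.18). The ratio of inhibitory Klrc1 to activating Klrc2, per length, was 1.42 in Ezh2-KO (1.35 to 1.5) and 1.21 in WT CD44+ NK1.1+ cells (1.14 to 1.29). In CD44+ NK1.1- replicates it was 1.73 and 1.46 in Ezh2-KO and 0.829 and 0.912 in WT. All of these intervals cover counting error only, and the shared Klrc sequence bears on this last ratio.

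Between genotypes in CD44+ NK1.1- cells none of the 10 genes passed the edgeR test, which called 4.94% of all tested genes (3.78% higher and 1.16% lower). At an unadjusted p under 0.05 there were 2, Fcer1g and Tyrobp, against 20.7% of tested genes, and DESeq2 called 1, Fcer1g (adjusted p = 0.0111), and 4.71% of all genes it tested. The log2 differences were negative for 9 genes and positive for Klri1, with a median of -1.27 against -0.01 over all tested genes. Among the 9 lower genes, the libraries did not overlap for the adaptors: Fcer1g, Tyrobp and Hcst were each lower in both Ezh2-KO replicates than in both WT replicates, a pattern seen in 25.8% of tested genes.

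Fcer1g differed most, at 1.77 and 1.08 CPM in Ezh2-KO against 21.0 and 5.63 CPM in WT, a log2 difference of -3.23 (SE 0.92, adjusted p = 0.206). For Tyrobp the difference was -1.77 (SE 0.47, adjusted p = 0.0998), from 18 reads in the Ezh2-KO and 65 in the WT replicates. For Hcst it was -0.61 (SE 0.25, adjusted p = 0.251). For the receptors the differences were -0.50 for Klrc1 (SE 0.82), -1.40 for Klrc2 (SE 0.95), -1.14 for Klrd1 (SE 0.71), -0.55 for Klrk1 (SE 0.72), -1.44 for Klre1 (SE 1.45) and -1.81 for Klri2 (SE 1.16). Their adjusted p lay between 0.486 and 0.802. Klri1 was higher in both Ezh2-KO replicates than in both WT replicates, as were 26.5% of tested genes, by 0.67 (SE 0.39, adjusted p = 0.397).

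The spread between replicates was wider in WT than in Ezh2-KO. WT replicate 1 exceeded WT replicate 2 at least 2-fold in 8 of the 10 genes, against 4.44% of tested genes, whereas the Ezh2-KO replicates did so in 0 of 10, against 1.24%. The ratio of WT replicate 1 to replicate 2 was 13.9 for Klre1, 6.87 for Klri2, 4.82 for Klrc2, 4.39 for Klrc1, 3.73 for Fcer1g, 3.49 for Klrk1 and 3.34 for Klrd1. It was 2.20 for Tyrobp, 1.97 for Klri1 and 1.66 for Hcst. Klrb1c, which encodes the NK1.1 protein used for the gate, stood at 50 and 41.7 CPM in Ezh2-KO and at 217 and 68.5 CPM in WT CD44+ NK1.1- replicates. The NKT1 effector genes, a list of 11 that includes Klrb1c and Tbx21, summed to 999 and 959 CPM in Ezh2-KO and to 2374 and 1576 CPM in WT replicates. Between the WT replicates, all 10 genes, Klrb1c and the effector sum were higher in replicate 1. Between genotypes the 10 did not all follow Klrb1c: it was lower in both Ezh2-KO replicates than in WT replicate 2, whereas Klrc1, Klrk1, Klre1 and Klri1 were higher in both than in that library. Markers of immature thymocytes summed to 24.8 and 13.4 CPM over 6 genes in Ezh2-KO and to 73.7 and 26.3 CPM in WT replicates, with Rag2 at 0 in Ezh2-KO replicate 2. None of these 6 was called, and their median log2 difference was -1.15. The part of Klrb1c, the effector genes and the thymocyte markers in the genotype differences was not tested.

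Without WT replicate 1 the signs turned for 5 receptors: the log2 difference became 0.92 for Klrc1, 0.14 for Klrc2, 0.61 for Klrk1, 1.45 for Klre1 and 0.15 for Klri2. In that fit Klrc1, Klrk1 and Klre1 were called higher and Fcer1g, at -1.99, was called lower, against 13.8% called higher and 13.6% called lower of all genes tested. Without WT replicate 2, 9 of the 10 were called lower, Fcer1g at -3.89, against 21% of all genes tested. In each of these fits the lone WT library was assumed to vary like the Ezh2-KO pair, which was the tighter one. Fcer1g, Tyrobp and Hcst stayed lower in Ezh2-KO in all 4 fits that left out a replicate, with ranges of -3.89 to -1.99, -2.23 to -1.10 and -0.93 to -0.20. Without Ezh2-KO replicate 1 or replicate 2, the signs of all 10 were those of the fit of all libraries. In those fits the lone Ezh2-KO library was assumed to vary like the WT pair.

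**Figure D3:**
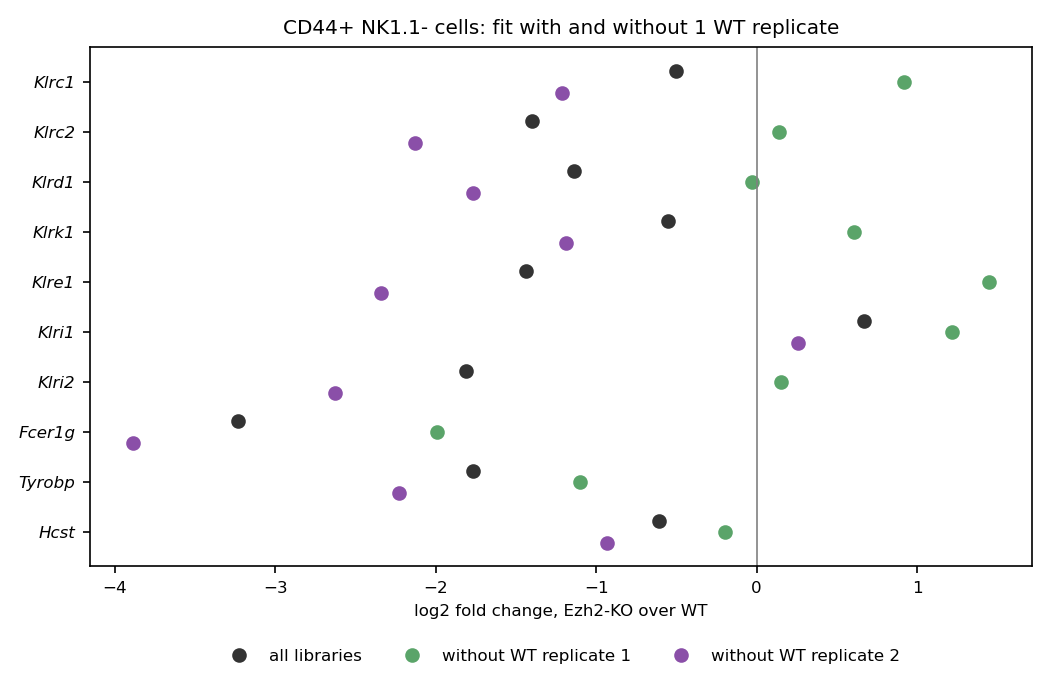
Ezh2-KO over WT in CD44+ NK1.1- cells on the log2 scale for each gene (x axis), from the fit of all libraries and from the fits without WT replicate 1 or without WT replicate 2. Fcer1g, Tyrobp and Hcst lie below 0 in all 3 fits, Klri1 above 0 in all 3, and Klrc1, Klrc2, Klrk1, Klre1 and Klri2 cross 0 when WT replicate 1 is left out.

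In CD44+ NK1.1+ cells each genotype had 1 library, so the ratios have no replicate check and their intervals cover counting error only. Klri1 stood apart, at 22.1 CPM in Ezh2-KO and 2.89 CPM in WT, from 440 and 60 reads. Its ratio was 7.65 (5.83 to 10.2). With a prior count of 2 on log2 CPM, its difference was reached or exceeded by 108 of the 13794 tested genes, Klri1 included. Klri2, the neighbour of Klri1, had a ratio of 2.48 (2.27 to 2.72). These were the 2 of the 10 that were at least 2-fold higher in Ezh2-KO on that log2 scale, against 6% of tested genes. Klrc1 at 1.66 (1.57 to 1.75), Klrk1 at 1.64 (1.60 to 1.68), Klre1 at 1.59 (1.51 to 1.68) and Klrc2 at 1.41 (1.33 to 1.5) were higher to a smaller degree. Klrd1 at 1.06 (1.03 to 1.09), Tyrobp at 1.19 (0.982 to 1.44) and Hcst at 1.03 (0.978 to 1.09) were close to equal. Of these, only the interval of Klrd1 lay above equality. Fcer1g alone was lower in Ezh2-KO, with a ratio of 0.622 (0.587 to 0.659), and none of the 10 was at least 2-fold lower, against 2.27% of tested genes.

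The Klri receptors differed between these libraries in their balance too. Per length, the ratio of inhibitory Klri1 to activating Klri2 was 1.21 in the Ezh2-KO CD44+ NK1.1+ library (1.09 to 1.35) and 0.395 in the WT library (0.298 to 0.514). In CD44+ NK1.1- replicates it was 4.03 and 4.98 in Ezh2-KO. The WT replicates there lay far apart, at 0.594 and 2.08, from 15 and 8 Klri1 reads. In CD44+ NK1.1+ cells NKT1 effector genes summed to 8411 CPM in Ezh2-KO and 9166 CPM in WT. Klrb1c stood there at 1447 CPM in Ezh2-KO and 1146 CPM in WT. NK and innate lymphoid markers in these libraries summed to 2313 CPM over 9 genes in Ezh2-KO and 1562 CPM in WT. Of those, Eomes stood at 72.2 CPM in Ezh2-KO and 0.82 CPM in WT, and Klra8 at 169.7 CPM in Ezh2-KO and 19.6 CPM in WT. Ncr1, from the same list, stood at 6.79 CPM in Ezh2-KO and 4.73 CPM in WT. The part of these markers in the receptor values was not tested.

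**Figure D4:**
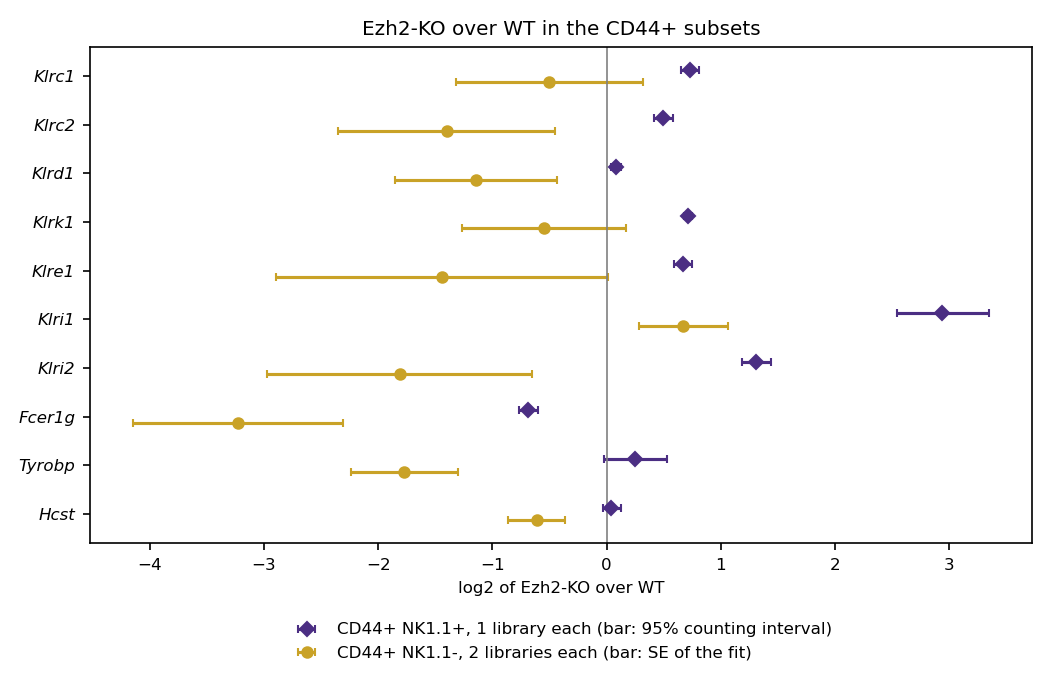
Ezh2-KO over WT on the log2 scale for each gene (x axis), in CD44+ NK1.1+ cells (diamonds, 1 library each, bars are 95% counting intervals) and in CD44+ NK1.1- cells (circles, 2 libraries each, bars are SE of the fit). Klri1 lies furthest to the right in both subsets, Fcer1g furthest to the left in both, and the bars are of different kinds and cannot be compared in width.

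Along the NK gene complex the high ratios were not spread evenly in the CD44+ NK1.1+ libraries. The neighbours Klri1 and Klri2, and Klrh1 beyond them at 1.95 (1.51 to 2.53), were above Klrc1, Klrc2, Klrc3, Klrk1 and Klrd1, which lay between 1.06 and 1.66. Further away, Klrb1f had a ratio of 2.65 (2.40 to 2.93) and Klrb1b of 2.30 (2.14 to 2.47), while Cd69 was at 0.565 (0.499 to 0.64). With 1 library per genotype no test of position was made.

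**Figure D5:**
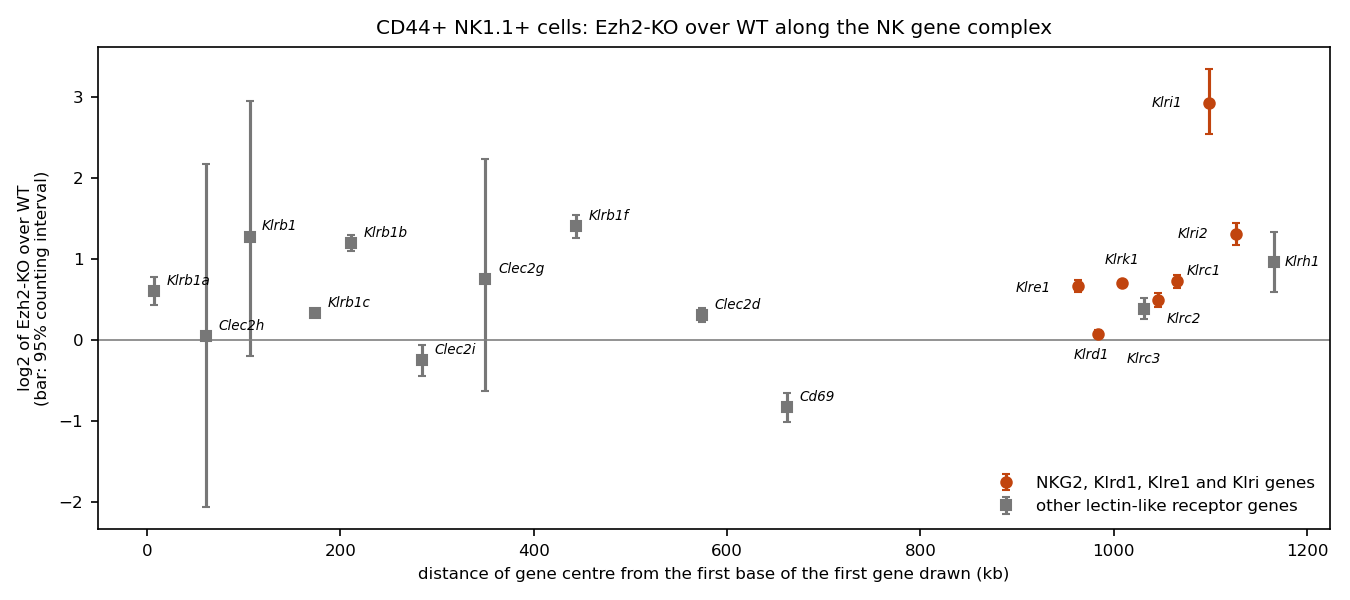
Ezh2-KO over WT in CD44+ NK1.1+ cells on the log2 scale (y axis, bars are 95% counting intervals, 1 library per genotype) against the distance of each gene centre from the first base of the first gene drawn, in kb (x axis), for 7 receptor genes described here (circles) and other lectin-like receptor genes nearby (squares; genes with over 3 reads in either library). Klri1 is the highest point and Cd69 the lowest.

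In CD44- NK1.1- cells, again with 1 library per genotype, the counting intervals of 4 receptor genes lay below equality, as did those of 23.3% of tested genes. Klrk1 had 109 reads in Ezh2-KO and 341 in WT, a ratio of 0.326 (0.26 to 0.405). Klrd1 had 62 in Ezh2-KO and 151 in WT, a ratio of 0.419 (0.306 to 0.566). Klrc2 had 11 in Ezh2-KO and 26 in WT (0.431, 0.192 to 0.903), and Klri2 had 1 in Ezh2-KO and 8 in WT (0.127, 0.00287 to 0.95). Tyrobp went the other way, with 13 reads in Ezh2-KO and 4 in WT (3.31, 1.02 to 13.9), an interval above equality, as for 21.3% of tested genes. For Klrc1, Klre1 and Fcer1g the counting interval included 1, and Hcst was level at 1.02 (0.927 to 1.12). Judged on log2 CPM with a prior count of 2, the same 4 receptor genes were at least 2-fold lower in Ezh2-KO, against 1.86% of tested genes. Klre1 and Tyrobp, with 13 reads or fewer, were at least 2-fold higher, against 4.99%.

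Over the 3 subsets, with genotype as an added effect, edgeR called none of the 10, against 11.3% of tested genes (6.43% higher and 4.89% lower). At an unadjusted p under 0.05 there were 2, against 26.9% of tested genes: Klri1 at 1.83 (SE 0.50, adjusted p = 0.0578) and Fcer1g at -1.98 (SE 0.77, adjusted p = 0.186). DESeq2 called both, and 12.1% of all genes it tested, with adjusted p of 0.0379 for Klri1 and 0.0346 for Fcer1g. Fcer1g was the one gene of the 10 that was lower in Ezh2-KO than in every WT library of its subset in all 3 subsets, as were 14.5% of tested genes. Without WT CD44+ NK1.1- replicate 1 edgeR called 3 of the 10 higher in Ezh2-KO, against 9.28% of the genes tested in that fit, namely Klri1 (2.51), Klre1 (0.80) and Klrc1 (0.71).

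The difference of the genotype effect between subsets was tested directly. Between CD44+ NK1.1+ and CD44+ NK1.1- cells edgeR called 0 of 13794 genes. At an unadjusted p under 0.05 there were 519 genes (3.76%), and DESeq2 called 27, with 0 of the 10 among them. All 10 differences were positive, from 0.66 for Hcst to 3.12 for Klri2, and those of Klri1 at 2.26 (SE 0.54, adjusted p = 0.85) and Tyrobp at 2.02 (SE 0.64, adjusted p = 1) had an unadjusted p under 0.05. All 10 differences rest on the same CD44+ NK1.1- replicates, and without WT replicate 1 the difference became -0.19 for Klrc1 and -0.78 for Klre1. Between CD44- NK1.1- and CD44+ NK1.1- cells edgeR called 3 genes (0.0217%) and none of the 10, with 648 genes (4.7%) at an unadjusted p under 0.05 and 28 called by DESeq2. Of the 10, Tyrobp had the lowest p (3.47, SE 0.99, adjusted p = 0.695).

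Genes around the receptors were described from lists. Of 12 other lectin-like receptor genes of chromosome 6 that passed the filter, 8 were called higher in CD44+ NK1.1+ than in CD44+ NK1.1- cells and none lower. Over all tested genes 16.4% were called higher and 16.1% lower. The median log2 difference of the 12 genes was 2.66, against 0.00 over all tested genes. The 8 called genes are described next. Among them were Klrb1b at 2.78 (SE 0.10, adjusted p = 0.000282), Klrb1f at 3.04 (SE 0.17, adjusted p = 0.000494) and Klrh1 at 5.19 (SE 0.39, adjusted p = 0.0008). In Ezh2-KO CD44+ NK1.1- cells Klrb1b was higher by 0.67 (SE 0.13, adjusted p = 0.0438) and Clec2i lower by 0.93 on that scale (SE 0.13, adjusted p = 0.0173).

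Of 16 other receptors that signal through Fcer1g or Tyrobp, 6 passed the filter. In CD44+ NK1.1+ against CD44+ NK1.1- cells 4 were called higher, against 16.4% of all tested genes: Ncr1, Fcgr3, Klra4 and Klra8. Fcgr3, the low-affinity Fc receptor that needs the Fcer1g chain, stood at 11.4 CPM in Ezh2-KO and 18.9 CPM in WT CD44+ NK1.1+ cells, the order that Fcer1g showed. It was at 1.53 and 1.17 CPM in Ezh2-KO and at 3.11 and 1.38 CPM in WT CD44+ NK1.1- replicates, a genotype difference of -0.73 that did not pass (SE 0.42, adjusted p = 0.395). Klra4 and Klra8, Ly49 receptors that use DAP12, were higher in Ezh2-KO over the 3 subsets, by 2.43 for Klra4 (SE 0.30, adjusted p = 0.0037) and 3.55 for Klra8 (SE 0.46, adjusted p = 0.00896), while their adaptor gene Tyrobp differed by -0.41 (SE 0.52, adjusted p = 0.67).

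Of 22 tested genes of the signalling chain below the adaptors, 11 were called higher in CD44+ NK1.1+ than in CD44+ NK1.1- cells and none lower. Over all tested genes 16.4% were called higher and 16.1% lower. The median log2 difference of the 22 was small, at 0.26, against 0.00 over all tested genes. Syk, the kinase that binds the phosphorylated adaptors, was higher by 1.57 (SE 0.20, adjusted p = 0.00376), and so was Lyn, a Src family kinase, by 1.57 (SE 0.12, adjusted p = 0.000899). The linker gene Lat2 was higher by 2.13 (SE 0.23, adjusted p = 0.00197). In Ezh2-KO CD44+ NK1.1- cells Lyn was higher by 1.85 (SE 0.16, adjusted p = 0.00329) and Pik3cb by 0.77 (SE 0.12, adjusted p = 0.0255). Lat2 was lower, with 2.39 and 2.30 CPM in Ezh2-KO against 9.60 and 5.50 CPM in WT replicates, a difference of -1.69 (SE 0.30, adjusted p = 0.0332). Of 4 CD3 complex genes Cd247, whose product like Fcer1g carries activation motifs, was higher in Ezh2-KO by 0.82 (SE 0.09, adjusted p = 0.00747). Between CD44+ NK1.1+ and CD44+ NK1.1- cells Cd247 differed by -0.58 (SE 0.08, adjusted p = 0.00441), whereas 2 of the 4 were called higher.

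Of 5 genes of phosphatases and kinases that act on such signalling, 3 were called higher in CD44+ NK1.1+ than in CD44+ NK1.1- cells. Over all tested genes the share called higher was 16.4%. The 3 were Ptprc, by 0.83 (adjusted p = 0.00249), Ptpn6, by 0.66 (adjusted p = 0.00252), and Inpp5d, by 0.62 (adjusted p = 0.0036). Inpp5d, the lipid phosphatase SHIP, was lower in Ezh2-KO over the 3 subsets by 0.30 on the log2 scale (SE 0.06, adjusted p = 0.0131). Of the ligands, 3 of the 6 found in the files passed the filter. H2-T23, which encodes the Qa-1 ligand of NKG2A and NKG2C, stood at 453 CPM in Ezh2-KO and 446 CPM in WT CD44+ NK1.1+ cells and was higher there than in CD44+ NK1.1- cells by 0.43 (SE 0.10, adjusted p = 0.025). Ulbp1, which encodes the NKG2D ligand MULT1, differed by -0.50 between these subsets and did not pass (SE 0.21, adjusted p = 0.112).

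For each of the 10, the genes with the most alike pattern over the 8 libraries were found as those with the smallest root mean square difference of centred log2 CPM, among 13397 genes. Klrc1 was nearest to Klrc3 (0.31), Klrc2 (0.41) and Cd244a (0.45), and Klrc2 to Klrc3 (0.39), Cd244a (0.39) and Klrc1. Klrd1 was nearest to Gzmc (0.28), Klrk1 (0.30) and Sulf2 (0.32), and Klrk1 to Klrd1, Klrc3 (0.41) and Sulf2 (0.49). Klre1 was nearest to Styk1 (0.55), Itga1 (0.74) and Klrc1 (0.81), and Klri2 to Cd244a (0.35), Klrc2 (0.50) and Klrc1 (0.57). Klri1 had no close match, with Aoah (0.69), Klrb1f (0.77) and Klra4 (0.78) nearest. Fcer1g followed Fasl (0.28), Gzmb (0.29) and Il12rb2 (0.52), and Gzmb stood at 502 CPM in Ezh2-KO and 1181 CPM in WT CD44+ NK1.1+ cells. Tyrobp was nearest to Stat4 (0.31), Slc41a2 (0.34) and Cd22 (0.40). Hcst was nearest to Ctsw (0.09), Tnfrsf18 (0.11) and Ppp1r9b (0.12). These distances describe 8 libraries that share the pattern of subsets and carry no test.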

How the data were processed

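The authors deposited whole-number read counts for each gene, with no normalization. Per the submitters' processing notes, CASAVA, Subread 1.4.3-p1, featureCounts and build mm10 were used. The labels name neither the annotation nor the strand setting. Per the labels, each RNA sample was sequenced on 4 lanes, and the CD44+ NK1.1- replicates are biological. Of the 27179 identifiers, 25275 matched a RefSeq symbol.

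Counts were scaled by TMM and filtered with filterByExpr on the 6 groups, which left 13794 genes. Testing used edgeR 4.0.16 in R 4.3.3 (glmQLFit with robust=TRUE, and glmQLFTest), with Benjamini-Hochberg adjustment over all tested genes. Called means an adjusted p under 0.05, from edgeR unless DESeq2 1.42.0 is named. A model of 6 group means (2 residual degrees of freedom) gave the comparisons within a subset, between subsets and of genotype effects. A model of subset and genotype as added effects (4 residual degrees of freedom) gave the comparison over the 3 subsets. Groups with 1 library were assumed to vary like the replicated ones. SE is the log2 difference divided by the root of F, and ratios of single libraries have exact 95% counting intervals. The code was tested on simulated data. Alternatives were DESeq2 size factors, library size, no filter, DESeq2, other designs and each library left out. Comparisons of subsets within WT alone or Ezh2-KO alone were contrasts of the model of 6 group means. That model was fitted to all libraries, so their variance came from both genotypes.

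Named are all 10 genes and Ezh2. Others were drawn from up to 4 genes per list and comparison with the smallest p and from lists of 5 or fewer tested members. Not every gene that these rules allow is named. The 3 most alike genes of each of the 10 are given. Klrb1c, Eomes, Klra8, Ncr1, Cd14, Csf1r, S100a9, Lyz2, Cd69, Klrb1f, Klrh1, Klrc3 and Gzmb are also given as single values, chosen after their values were seen. Genes and lists were chosen with earlier results of these data known. Raet1a, Raet1b, Raet1c and H60a were not matched. Promoter windows of Klrd1, Klri2 and Tyrobp and protein sequences were not used here.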

Additional observations from a re-analysis of the deposited data

Results flagged for a closer look

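For Tyrobp and Hcst, the Ezh2-KO libraries lay below both WT ones in CD44+ NK1.1- cells and at or above the WT library in the other subsets. Tyrobp was lower in both Ezh2-KO CD44+ NK1.1- replicates, at 0.429 and 0.405 CPM, than in the WT ones, at 1.98 and 0.903 CPM. In CD44+ NK1.1+ cells it stood at 11.8 CPM in Ezh2-KO and 9.94 CPM in WT, a ratio of 1.19 whose counting interval (0.982 to 1.44) includes equality. In CD44- NK1.1- cells it stood at 0.596 CPM in Ezh2-KO and 0.18 CPM in WT, a ratio of 3.31 (1.02 to 13.9). The difference of the genotype effects was 2.02 on the log2 scale for CD44+ NK1.1+ less CD44+ NK1.1- cells (SE 0.64, adjusted p = 1, edgeR quasi-likelihood test). It was 3.47 for CD44- NK1.1- less CD44+ NK1.1- cells (SE 0.99, adjusted p = 0.695), from 13 reads in Ezh2-KO and 4 in WT CD44- NK1.1- cells.

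Hcst was lower in both Ezh2-KO CD44+ NK1.1- replicates and level in the other subsets, where the Ezh2-KO library was 1.03 times (CD44+ NK1.1+) and 1.02 times (CD44- NK1.1-) the WT one. Its differences of the genotype effects were 0.66 (SE 0.43, adjusted p = 1, edgeR) and 0.64 (SE 0.44, adjusted p = 0.992, edgeR). None of these differences passed the test.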

How the results depend on the processing

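No paired analysis was possible because the labels give the replicates no number that ties an Ezh2-KO library to a WT one. Under DESeq2 size factors and library size alone, none of the 10 genes changed direction in any comparison. Within Ezh2-KO alone, Tyrobp in CD44+ NK1.1- against CD44- NK1.1- cells turned to -0.51, and the cause was not tested.

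For CD44+ NK1.1+ against CD44+ NK1.1- cells, 4479 genes were called, against 1416 in WT alone and 2565 in Ezh2-KO alone. Of the 10, 9 were called, against 3 without a filter and 2 in WT alone. Leaving out a library gave 1519 to 8585 genes, among them 2051 without the Ezh2-KO CD44+ NK1.1+ library (subset and genotype as added effects), and 3 to 10 of the 10. For CD44+ NK1.1- against CD44- NK1.1- cells, 367 genes were called, against 68 in Ezh2-KO alone, and 60 to 4394 when a library was left out, among them 83 without Ezh2-KO CD44+ NK1.1- replicate 1. Of the 10, 1 was called, against 7 with DESeq2, 0 in WT alone, in Ezh2-KO alone or with added effects, and 0 to 10 when a library was left out.

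For Ezh2-KO against WT in CD44+ NK1.1- cells, 682 genes were called, and 101 to 5792 when a library was left out. Of the 10, 0 were called, against 1 with DESeq2 and 0 to 9 when a library was left out. Signs turned for Klrc1 (-1.21 to 0.92), Klrc2 (-2.13 to 0.14), Klrk1 (-1.19 to 0.61), Klre1 (-2.34 to 1.45) and Klri2 (-2.63 to 0.15). Over the 3 subsets, 1561 genes were called, and 489 to 2794 when a library was left out. Of the 10, 0 were called, against 2 with DESeq2 and 0 to 3 when a library was left out. Signs turned for Klrc1 (-0.54 to 0.71), Klrc2 (-1.37 to 0.30), Klrk1 (-0.83 to 0.24), Klre1 (-1.24 to 0.80), Klri2 (-1.89 to 1.02) and Tyrobp (-0.93 to 0.07).

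For the genotype effect in CD44+ NK1.1+ less that in CD44+ NK1.1- cells, 0 genes were called by edgeR, 519 had an unadjusted p under 0.05, 1 was called without a filter, 27 by DESeq2 and 0 to 2634 when a library was left out. Of the 10, 0 to 10 were then called, and signs turned for Klrc1 (-0.19 to 1.94) and Klre1 (-0.78 to 3.01). For the effect in CD44- NK1.1- less that in CD44+ NK1.1- cells, 3 genes were called, against 24 without a filter, 28 by DESeq2 and 1 to 3063 when a library was left out. Of the 10, 0 to 4 were then called, and signs turned for Klrc1 (-1.65 to 0.48), Klrc2 (-1.34 to 0.92) and Klrd1 (-1.23 to 0.51). The cause of these turns was not tested. Depth limits Klri1, Klri2, Klre1 and Tyrobp in CD44- NK1.1- cells, where they had 1 to 13 reads per library.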
